A study of Neurospora crassa with 12 samples.

Results

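The comparison described here is the step between 5 and 30 min of treatment of *Neurospora crassa* with heat-stable antifungal factor (HSAF). It sets the 3 RNA-seq libraries of HSAF-30, lettered G, H and I, against the 3 of HSAF-5, lettered D, E and F. These are 6 of the 12 libraries of the series. The values are also given without library I, which leaves 5 libraries. All samples were mycelium of the wild type strain FGSC2489, a laboratory strain of the filamentous fungus, and HSAF was used at 40 μM. HSAF-30, HSAF-5, HSAF-60 and the untreated HSAF-0 differed in the length of that treatment alone, as far as the labels state. No culture was carried along without HSAF to 5, 30 or 60 min, so time in the culture and time in HSAF cannot be told apart. Of the 9729 genes with an NCU identifier in the table of counts, 7582 had enough counts to be tested, and 7788 without library I.

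HSAF is a polycyclic tetramate macrolactam made by the bacterium *Lysobacter enzymogenes*. The hypha it acts on grows at its tip, where chitin and glucan are laid down in the wall, and a wall stress is relayed in fungi by calcium, by calcineurin and by a cascade of MAP kinases. In a filamentous fungus, broken DNA ends are rejoined by the Ku heterodimer with DNA ligase IV, or repaired on an intact copy by recombination proteins such as Rad52. Sugar supply sets, as in other fungi, whether genes of sugar breakdown or genes for the uptake and release of scarce sugars are transcribed. These pathways order the account below.

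The libraries of the comparison differed in depth on NCU genes. These counts were 7473740, 7436973 and 790513 in G, H and I, against 2807816, 4505189 and 7412077 in D, E and F. A pair of features named newGene_189 and newGene_190, whose nature is not given in the sources used here, held 34.3%, 38.7% and 93.7% of all counts in G, H and I, against 77.8%, 65.3% and 39.8% in D, E and F. In library I only 4195 genes reached 10 counts. For this reason the NCU genes were tested by themselves. Levels are given as counts scaled to a common total of counts on NCU genes (CPM) with TMM factors. All samples carry the label mycelium. The 5 marker genes of growing hyphae summed to 15800 to 22450 CPM in HSAF-30 and 17130 to 19720 CPM in HSAF-5, and edgeR called none of them (1 at an unadjusted p under 0.05, 0 called by DESeq2 or limma). The 12 markers of asexual spores summed to 406.9 to 1241 CPM in HSAF-30 and 1347 to 2416 CPM in HSAF-5. The same 12 summed to 519.1 to 600 CPM in HSAF-0 and 1187 to 1896 CPM in HSAF-60. In library I, 6 of these 12 (*con-6*, *con-8*, *con-10*, *con-13*, *csp-1* and *fl*) were at 0. At 0 were also *con-6*, *con-10* and *con-13* in D, *con-10* in E, *con-13* in F and *fl* in G. The 5 sexual tissue markers summed to 34.8 to 132 CPM in HSAF-30 and 74.2 to 236.1 CPM in HSAF-5. Whether spore RNA had a part in the results below was not tested. In these bulk samples fewer cells of a type and less RNA per cell cannot be told apart.

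A gene was called when its Benjamini-Hochberg adjusted p in edgeR's quasi-likelihood test was under 0.01 and its fold change was at least 2. Of the 7582 tested genes, 684 were higher in HSAF-30 than in HSAF-5 and 592 were lower, which is 9.02% and 7.81% of the genes, or 16.8% together. Without library I the numbers were 669 and 412, or 8.59% and 5.29% of 7788 genes. The calls made both with and without this library were 574 higher and 402 lower. The HSAF-30 libraries did not overlap the HSAF-5 libraries for 671 of the 684 higher and 589 of the 592 lower genes. Over all tested genes 39.7% did not overlap, 18.4% with every HSAF-30 library above and 21.3% with every one below. The genes were called on these same libraries, so the lack of overlap is no separate support for the calls. Among the called genes, 409 were at least 4-fold higher and 298 at least 4-fold lower. At least 8-fold changes were found for 161 higher and 81 lower genes. The median log2 fold change over all tested genes was −0.11, and −0.02 without library I. With scaling by library size alone this median was 0.10, and the calls divided into 896 higher and 451 lower, or 66.5% higher against 53.6% with TMM. Leaving out 1 library moved the number of calls by over 1.5 times for 3 of the 6 libraries. It was 708 without D, 706 without F and 758 without G. The number of lower genes alone was 912 without H. Of the 1276 called genes, 327 higher and 217 lower ones were called whichever of D to I was left out. On the deposited FPKM, limma called 75 genes, and the cause of this difference was not tested.

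**Figure D1:**
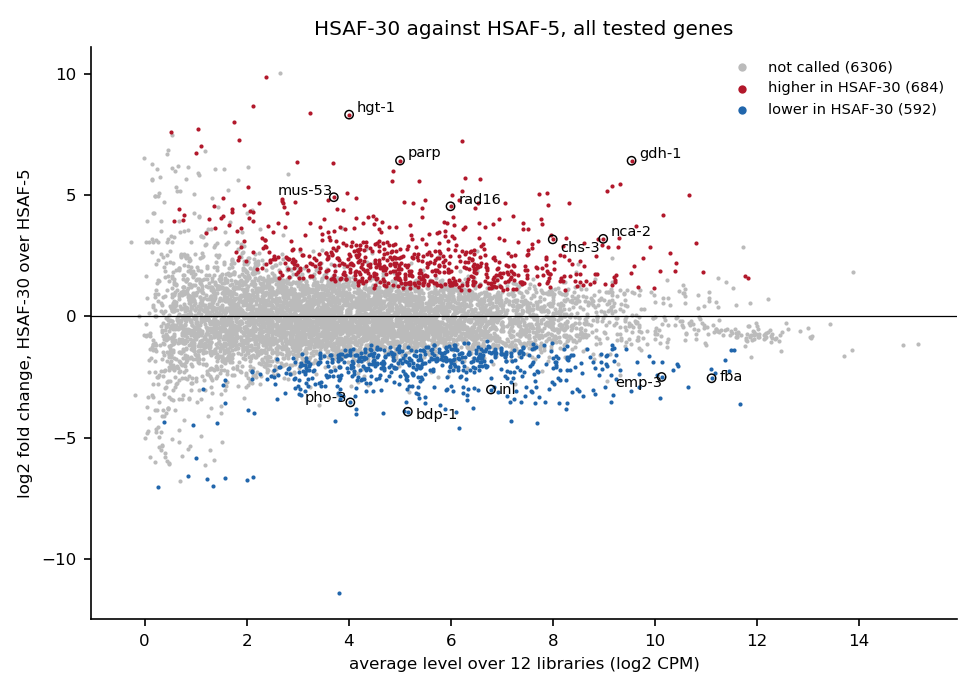
Each point is 1 of the 7582 tested genes, with the average level over the 12 libraries (log2 CPM) on the x axis and the log2 fold change of HSAF-30 over HSAF-5 on the y axis. The 684 red points were called higher and the 592 blue points lower in HSAF-30, and *gdh-1* combines a high level with a fold change of 6.41 on the log2 scale.

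Genes that join or recombine broken DNA were higher in HSAF-30. Of the 9 tested genes of this list, 8 were called higher and none lower, where 9.02% of all tested genes were higher, and the median log2 fold change was 2.76. This list, like those below, was written with earlier results of these data known, so the shares are a description and not a test. *parp* encodes poly(ADP-ribose) polymerase, an enzyme that marks DNA breaks. The level of *parp* (NCU08852) was 121, 59.6 and 102.4 CPM in HSAF-30, against 0, 0.548 and 2.12 CPM in HSAF-5. The groups were far apart, and the HSAF-0 libraries lay between 2.43 and 4.82 CPM. Its log2 fold change was 6.42 ± 0.66 (SE, adjusted p in edgeR 1.45e-05).

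The DNA ligase IV gene *mus-53* (NCU06264) stood at 16.5, 10.8 and 72.8 CPM in HSAF-30 and at 0.847, 1.92 and 0.386 CPM in HSAF-5. Library I was the highest of all, and the log2 fold change was 4.91 ± 0.84 with it and 3.73 without it. The genes of both Ku subunits were higher too. *mus-51* (Ku70, NCU08290) had 227.9, 37.0 and 163.7 CPM in HSAF-30 and 12.3, 9.60 and 22.6 CPM in HSAF-5, with a log2 fold change of 3.25 ± 0.58 and an adjusted p in edgeR of 0.000733. *mus-52* (Ku80, NCU00077) had 68.3, 7.21 and 84.3 CPM in HSAF-30 and 6.35, 3.29 and 4.63 CPM in HSAF-5, with a log2 fold change of 3.47 ± 0.68. For both genes library H was the lowest of HSAF-30, and for *mus-52* it lay close to library D.

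Genes of recombination followed. *mus-11*, the Rad52 gene (NCU04275), had 15.99, 9.99 and 14.4 CPM in HSAF-30 against 2.96, 1.65 and 1.54 CPM in HSAF-5, and a log2 fold change of 2.76 ± 0.46. Every HSAF-30 library was above every HSAF-5 library in this gene. *mus-25*, the Rad54 gene, had a log2 fold change of 1.88 ± 0.41. *mus-23*, the Mre11 gene, had one of 2.26 ± 0.59 on 54 counts in HSAF-30 and 11 in HSAF-5. The call of *mus-23* was lost when any library but H was left out, with adjusted p between 0.0107 and 0.0385 in edgeR. The call of *mus-25* was lost without D (adjusted p 0.0116) and without F (0.0152). The list held 5 called genes without D, 6 without F, 7 without I and 6 in a fit of the 2 groups alone. DESeq2 called 8 of 9 higher, and limma 1 of the 8 genes it was fitted to. In edgeR with all 12 libraries *uvs-6*, the Rad50 gene, was the member not called. Its levels were 6.73, 3.93 and 0 CPM in HSAF-30 and 1.69, 3.29 and 3.09 CPM in HSAF-5.

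**Figure D2:**
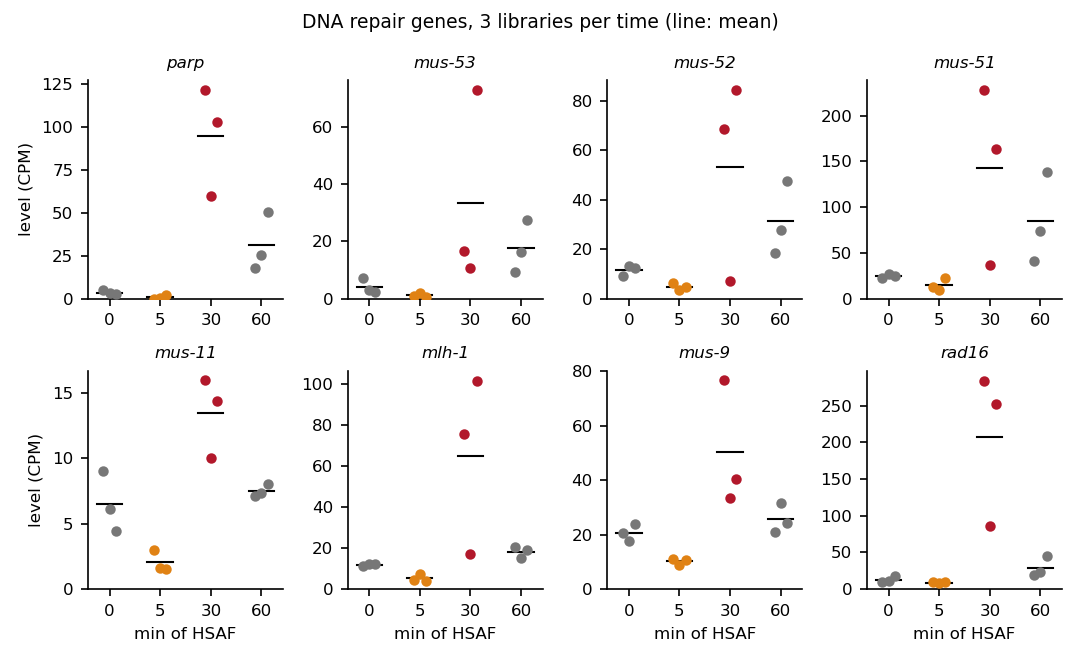
Levels in CPM of 8 DNA repair genes in the 3 libraries at each of 0, 5, 30 and 60 min of HSAF, with 1 point per library and a line at the mean. *parp* lay between 59.6 and 121 CPM in HSAF-30 and at no more than 2.12 CPM in HSAF-5.

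The other DNA repair and checkpoint genes were mixed. Of 33 tested, 7 were higher and 1 lower, beside 9.02% and 7.81% of all tested genes. The median log2 fold change of the 33 was 0.85. The largest change among the well expressed ones was that of *rad16* (NCU03650), whose yeast namesake acts in nucleotide excision repair, with 284.0, 86.5 and 251.8 CPM in HSAF-30 and 9.74, 7.95 and 9.06 CPM in HSAF-5. Its log2 fold change was 4.54 ± 0.49 (adjusted p in edgeR 1.88e-05). The next gene in the annotation, NCU03649, had no symbol and was also among the largest increases, at 7.24 ± 0.75. Reads that 2 neighbouring genes might share cannot be divided between them, since the strand setting of the counting is not given in the sources used here.

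Mismatch repair was represented by *mlh-1* (NCU08309), the MutL homologue gene, with a log2 fold change of 3.62 ± 0.53. *pms-1*, its partner gene, had 65 counts in the 3 HSAF-30 libraries and none in HSAF-5, which makes it at least 18.5-fold higher against a floor of 3 counts over the group. The ATR kinase gene of the DNA damage checkpoint, *mus-9* (NCU11188), had 76.8, 33.4 and 40.2 CPM in HSAF-30 and 11.01, 8.77 and 10.8 CPM in HSAF-5, a log2 fold change of 2.31 ± 0.36. *rad23* was at 2.25 ± 0.37 on the same scale. *mus-59* (2.15 ± 0.54) was not called without D, F, G or H, with adjusted p in edgeR between 0.0197 and 0.0309. *mus-10* (1.40 ± 0.30) was not called without D, F or G, with adjusted p between 0.0129 and 0.0179. The photolyase gene *phr*, which repairs ultraviolet damage with light, was the member that was lower, at −2.74 ± 0.47, and without H 2 members were lower.

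Genes for the uptake and release of sugars included some of the largest increases. *hgt-1* (NCU10021) encodes a high-affinity glucose transporter. It stood at 77.4, 62.6 and 44.0 CPM in HSAF-30 and at 0, 0 and 0.386 CPM in HSAF-5. The 2 counts in HSAF-5 and 888 in HSAF-30 gave a ratio of 379.7 after scaling, with a 95% interval from counting error of 104.8 to 3140. The fitted log2 fold change was 8.31 ± 0.88 (adjusted p in edgeR 1.49e-05). Its levels at the other times were low, with 0 to 1.10 CPM in HSAF-0 and 0.818 to 5.19 CPM in HSAF-60.

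The glucoamylase gene *gla-1* (NCU01517), whose enzyme releases glucose from starch, had 138.4, 122.7 and 169.5 CPM in HSAF-30 and 18.2, 10.7 and 11.8 CPM in HSAF-5. The groups were well apart, with a log2 fold change of 3.41 ± 0.37. *gh13-1* (1.74 ± 0.33) was also higher. *cdt-1*, a cellodextrin transporter gene, was at 3.17 ± 0.71 and was not called without F (adjusted p in edgeR 0.0105) or G (0.0299). *gh13-5* was lower, at −2.45 ± 0.47, and without H 2 genes of the list were lower. In all, 4 of the 12 tested genes of the list were higher and 1 was lower, beside 9.02% and 7.81% of all tested genes. The list median was 0.02 (0.42 without G, −0.47 without H), where that of all tested genes was −0.11. Of the 30 tested genes of plant wall breakdown, 1 was called, *gh3-1*, which was lower at −2.13 ± 0.43 and was not called without G (adjusted p 0.0109).

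*gdh-1* (NCU00461) encodes the NAD-dependent glutamate dehydrogenase, which breaks glutamate down to ammonium and a carbon skeleton. It had 3703, 1277 and 2808 CPM in HSAF-30 and 33.5, 23.6 and 34.3 CPM in HSAF-5. Its log2 fold change of 6.41 ± 0.44 had an adjusted p in edgeR of 5.29e-07. At 60 min it stood between 302.9 and 390.2 CPM, between the levels of both earlier times. *fbp-1* (NCU04797), the fructose-1,6-bisphosphatase gene of gluconeogenesis, had 95.8, 50.8 and 76.6 CPM in HSAF-30 and 8.47, 3.84 and 17.5 CPM in HSAF-5, and a log2 fold change of 2.87 ± 0.46. It was the only one of 6 tested genes of gluconeogenesis and the glyoxylate cycle to be called. This share is near the 16.8% called over all tested genes.

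Genes of glycolysis, pyruvate and ethanol were mostly lower in HSAF-30. Of 14 tested, 7 were called lower and none was called higher, where 7.81% of all tested genes were lower. Positive but not called were 3 of the 14, *ace-2* (0.7), *ace-3* (0.89) and *ace-4* (0.49). The median log2 fold change of the list was −1.54. Without library I, 5 were lower, and the median was −1.32. The aldolase gene *fba* (NCU07807) had 231.3, 1324 and 280.5 CPM in HSAF-30 and 3655, 3448 and 3628 CPM in HSAF-5. Library H was the highest of HSAF-30 and still well below the HSAF-5 libraries. Its log2 fold change was −2.54 ± 0.52 (adjusted p in edgeR 0.00188).

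*emp-3* (NCU00629) followed the same course, with 193.4, 547.2 and 171.4 CPM in HSAF-30 and 1859, 1613 and 1673 CPM in HSAF-5, and a log2 fold change of −2.49 ± 0.40. The phosphoglycerate kinase gene *pgk* was at −2.14 ± 0.34, the alcohol dehydrogenase gene *adh-1* at −2.26 ± 0.42 and *emp-1* at −2.21 ± 0.33. These 5 genes were called whichever library was left out. The pyruvate kinase gene *ace-8* (−1.97 ± 0.53) had an adjusted p in edgeR of 0.00974, and it was not called when any library but H or J was left out (adjusted p between 0.0112 and 0.0454). *emp-6* (−1.40 ± 0.33) was not called without D, E, F, G or I, with adjusted p between 0.0111 and 0.0253. The glyceraldehyde-3-phosphate dehydrogenase gene *gpd-1* had 995, 3850 and 841 CPM in HSAF-30 and 5931, 6902 and 5472 CPM in HSAF-5. Its groups did not overlap, but with a log2 fold change of −1.69 ± 0.46 and an adjusted p of 0.0114 it was not called. With library size alone 5 of the list were lower and 1 was higher. In a fit of the 2 groups alone 5 were lower. DESeq2 called 9 lower and limma called none.

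**Figure D3:**
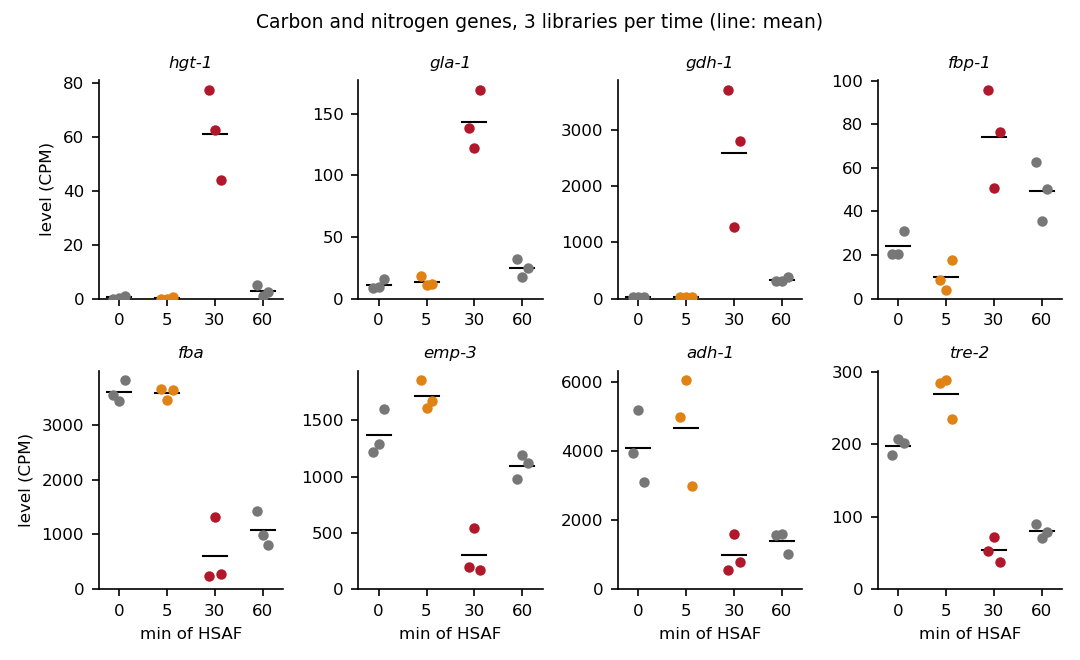
Levels in CPM of 8 genes of carbon and nitrogen use in the 3 libraries at each of 0, 5, 30 and 60 min of HSAF, with 1 point per library and a line at the mean. *hgt-1* lay between 44.0 and 77.4 CPM in HSAF-30 and at no more than 0.386 CPM in HSAF-5, while *fba* lay between 231.3 and 1324 CPM in HSAF-30 and between 3448 and 3655 CPM in HSAF-5.

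Of the 4 tested genes of trehalose and glycogen, 2 were lower, where 7.81% of all tested genes were. The trehalase gene *tre-2* (NCU04221) had 52.2, 72.4 and 37.3 CPM in HSAF-30 and 284.9, 289.0 and 235.1 CPM in HSAF-5, and a log2 fold change of −2.30 ± 0.30. The glycogen synthase gene *gsy-1* (−1.67 ± 0.42) was not called without A, C, D, E, F, G or I (adjusted p in edgeR between 0.0105 and 0.0319). Among 18 tested genes of the tricarboxylic acid cycle, *tca-7* was higher at 1.95 ± 0.31, where 9.02% of all tested genes were higher. *tca-17* was lower at −1.71 ± 0.40 and was not called without D, F, G or I (adjusted p between 0.0134 and 0.0259). Without H, 3 genes of the cycle were lower.

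Genes of amino acid synthesis had mostly negative changes that stayed below the threshold. Of 49 tested, 43 had a negative log2 fold change, as had 4053 of all 7582 tested genes. The list median was −0.87 (−0.66 without I, −1.36 without H). In the list 4 genes were called lower, a share near the 7.81% of all tested genes. The number of calls in the list depended on library H, without which 23 were lower. It was 2 without E and 2 without G. *pro-4* (NCU00106), the glutamate 5-kinase gene of proline synthesis, had 8.08, 22.1 and 7.66 CPM in HSAF-30 and 66.9, 83.9 and 38.6 CPM in HSAF-5, and a log2 fold change of −2.25 ± 0.41. *arg-14*, the acetylglutamate synthase gene of arginine synthesis, was at −1.81 ± 0.30. Both were called whichever library was left out. In nitrogen use, *gdh-1* was the higher gene of 15 tested, and the nitrite reductase gene *nit-6* was the lower one, at −3.29 ± 0.79. Over all tested genes 9.02% were higher and 7.81% lower. The call of *nit-6* was lost without D, E, G or I, with adjusted p in edgeR between 0.0145 and 0.0279. The nitrogen list held 2 higher genes without I and 3 lower ones without H.

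Sulfur and phosphate genes moved in both directions, with 2 higher and 3 lower of 19 tested, beside 9.02% and 7.81% of all tested genes. The higher genes numbered 1 in every fit that left out a library other than B or G. The lower genes numbered 1 without D, F, G or I and 4 without H. The phosphatase gene *pho-3* (NCU08643) had 3.37, 3.44 and 1.92 CPM in HSAF-30 and 39.8, 30.2 and 40.5 CPM in HSAF-5, a log2 fold change of −3.54 ± 0.43. *cys-9*, the thioredoxin reductase gene, was higher, at 747.2, 731.0 and 282.5 CPM in HSAF-30 and 143.1, 180.4 and 116.1 CPM in HSAF-5 (log2 fold change 2.00 ± 0.37). The gene of the sulfur regulator *cys-3* (−1.51 ± 0.36) was not called without B, D, F, G or I, with adjusted p in edgeR between 0.0102 and 0.0294.

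The cell wall has been the center of interest for HSAF. Of 6 tested genes of chitin synthesis, 2 were higher and none was lower, beside 9.02% and 7.81% of all tested genes. All 6 had a positive log2 fold change, as had 3527 of all 7582 tested genes. *chs-3* (NCU04251), a chitin synthase gene, had 851.5, 664.3 and 656.8 CPM in HSAF-30 and 94.0, 69.1 and 77.9 CPM in HSAF-5. The groups were far apart, with a log2 fold change of 3.17 ± 0.32 (adjusted p in edgeR 1.45e-05). Its HSAF-0 libraries lay between 23.5 and 23.9 CPM, and its HSAF-60 libraries between 130.7 and 242.7 CPM. *gfa1* (NCU07366), named for the enzyme that opens the pathway to the chitin precursor, had 2572, 1973 and 1812 CPM in HSAF-30 and 951, 685 and 1193 CPM in HSAF-5, a log2 fold change of 1.17 ± 0.30. It was not called without A, C, D, E, G, K or L, with adjusted p between 0.0120 and 0.0337.

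The 3 wall genes that the study followed up in deletion strains, *chs-1*, NCU02592 and NCU05686, were not called between 5 and 30 min. *chs-1* (NCU03611) had 1000, 1065 and 1011 CPM in HSAF-30 and 716.3, 616.9 and 790.2 CPM in HSAF-5, which did not overlap, with a log2 fold change of 0.53 ± 0.28 and an adjusted p in edgeR of 0.160. NCU02592, called *chs-9* by the study, had 87.0, 234.7 and 193.4 CPM in HSAF-30 and 64.3, 92.7 and 23.3 CPM in HSAF-5, which overlapped (1.52 ± 0.48, adjusted p 0.024). NCU05686, called *gh16-5*, also overlapped, at 455.6, 704.8 and 346.6 CPM in HSAF-30 and 207.9, 362.2 and 110.3 CPM in HSAF-5 (1.15 ± 0.40, adjusted p 0.0370).

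Other wall genes were called in small numbers, where 9.02% of all tested genes were higher and 7.81% lower. Of 11 tested glucanases and transferases, *gh76-3* was higher (1.82 ± 0.39), though not without D (adjusted p in edgeR 0.0178) or F (0.0189). Of 17 tested cell wall proteins, *acw-5* (1.503 ± 0.30) and *acw-2* (1.23 ± 0.31) were higher. Without D neither was called, at adjusted p of 0.0145 for *acw-5* and 0.0389 for *acw-2*. *acw-2* was also lost without A, C, E, F, G, H, K or L, at 0.0116 to 0.0297. The list of wall proteins held 3 higher genes without I, and 1 higher and 2 lower without H. The glucanase list held 2 higher genes without I. None of 9 tested chitinases and none of 14 genes for GPI anchors and mannosylation was called by edgeR, with 3 and 4 of them at an unadjusted p under 0.05. DESeq2 called 1 higher in each list and limma none.

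Of 13 tested genes of calcium signalling, 2 were higher and 1 was lower, where 9.02% and 7.81% of all tested genes were, and the median was 0.07 (0.29 without I, 0.38 without F, −0.07 without E). *nca-2* (NCU04736), the gene of a calcium ATPase of the plasma membrane, had 1727, 1131 and 2231 CPM in HSAF-30 and 199.8, 165.3 and 189.4 CPM in HSAF-5. Its log2 fold change was 3.20 ± 0.35 (adjusted p in edgeR 1.88e-05), and its HSAF-60 libraries lay between 69.4 and 105.5 CPM. *cnb-1* (NCU03833), the gene of the regulatory subunit of calcineurin, had 1885, 1012 and 803.3 CPM in HSAF-30 and 191.4, 222.9 and 245.3 CPM in HSAF-5, a log2 fold change of 2.49 ± 0.34. Both genes were called whichever library was left out. The gene of the calcium channel component *mid-1* was lower (−1.18 ± 0.30), though it lost its call when any library but H or J was left out, with adjusted p between 0.0102 and 0.0658. Without H the list held 2 lower genes. *nca-1* (NCU03305), which the study used to mark the endoplasmic reticulum, had 127.4, 185.1 and 90.0 CPM in HSAF-30 and 125.7, 90.2 and 168.6 CPM in HSAF-5, with full overlap.

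Of 16 tested genes of the MAP kinase cascades, 1 was higher and 1 was lower, beside 9.02% and 7.81% of all tested genes. *mak-1* (NCU09842), the kinase gene of the cell wall integrity pathway, was the higher one. It had 535.6, 420.3 and 248.9 CPM in HSAF-30 and 74.1, 81.7 and 60.6 CPM in HSAF-5, a log2 fold change of 2.48 ± 0.32 (adjusted p in edgeR 5.1e-05). Its levels in HSAF-0 and HSAF-60 lay between 56.7 and 63.8 CPM and between 45.7 and 49.5 CPM, near those of HSAF-5. *hpt-1*, the phosphotransfer gene of the osmosensing pathway, was lower, with 93.4, 96.3 and 54.6 CPM in HSAF-30 and 343.8, 377.0 and 422.2 CPM in HSAF-5 (log2 fold change −2.21 ± 0.31). The groups did not overlap in either gene. Without I the cascades held 2 higher genes, and without H 2 lower ones.

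Among 17 tested genes of G proteins and cAMP, 3 were higher and 1 was lower, beside 9.02% and 7.81% of all tested genes. The receptor gene *gpr-6* (1.91 ± 0.38), the adenylate cyclase gene *cr-1* (1.59 ± 0.31) and the G protein beta subunit gene *gnb-1* (1.32 ± 0.32) were higher. None of these 3 was called without library D, where their adjusted p in edgeR were 0.0134, 0.0121 and 0.0243. *gnb-1* was also lost without E, F, G or H. The gene *pkac-2*, a catalytic subunit of protein kinase A, was lower at −1.52 ± 0.30 whichever library was left out. Of 45 tested kinase genes named stk, 3 were higher and 2 were lower, both shares below those of all tested genes, and the median was 0.15. The lower ones numbered 1 without B, D, E, F, G, I, K or L. *stk-52* (3.08 ± 0.52) and *stk-38* (2.44 ± 0.43) were higher and stayed called, as did the lower *stk-11* (−2.07 ± 0.37).

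Genes of growth at the tip and of fusion between hyphae gave a small number of increases. *Prm1* (NCU09337), a gene of membrane merger in cell fusion, had 131.6, 112.9 and 130.2 CPM in HSAF-30 and 7.197, 4.39 and 9.84 CPM in HSAF-5, a log2 fold change of 4.11 ± 0.40 (adjusted p in edgeR 1.27e-05). The list of hyphal fusion held 3 higher and no lower genes of 16, beside 9.02% and 7.81% of all tested genes. The list median was 0.77, and 14 of the 16 had a positive change, as had 3527 of all 7582 tested genes. The other called genes of the list depended on single libraries. *so* (1.82 ± 0.47) was not called without E, F, G, I or K, at adjusted p between 0.0111 and 0.0376, and *ham-8* (1.43 ± 0.37) was not without A, C, D, F, G, H, K or L, at 0.01002 to 0.0411. The list held 1 called gene without F, G or K.

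Of 25 tested genes of actin, tubulin and motors, 4 were higher and none was lower, beside 9.02% and 7.81% of all tested genes. The formin gene *bni1* (2.22 ± 0.39) and the myosin gene *myo2* (2.44 ± 0.38), both of actin cables and rings, stayed called whichever library was left out. The fimbrin gene *fim* (1.74 ± 0.39) lost its call without D, E, F or G, at adjusted p in edgeR between 0.0118 and 0.0194. The list held 2 called genes without D or F. The actin gene *act*, a marker of hyphae, had a log2 fold change of 0.85 and was not called.

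**Figure D4:**
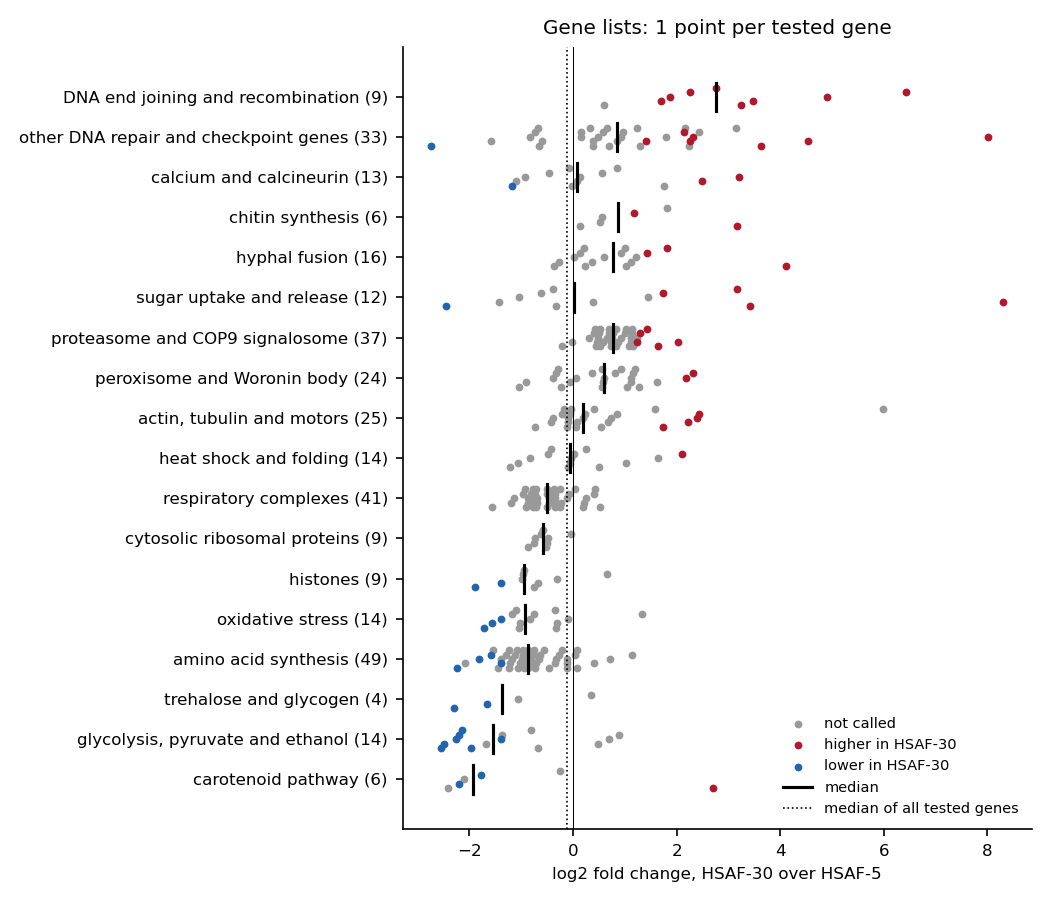
Each point is a tested gene of the list named on the left, placed at its log2 fold change of HSAF-30 over HSAF-5, with the number of tested genes in parentheses. Black bars are list medians, the dotted line is the median of all 7582 tested genes at −0.11, and the medians run between 2.76 for DNA end joining and recombination and −1.94 for the carotenoid pathway.

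Protein turnover genes had small positive changes in large part. Of 37 tested proteasome and COP9 signalosome genes, 35 had a positive log2 fold change, as had 3527 of all 7582 tested genes. The list median was 0.77 (0.45 without G). In the list 5 genes were called higher, where 9.02% of all tested genes were. The number of calls was 12 without H or with library size alone. It was 1 without D, E or F, 2 without G and 3 without A, C, I, K or L. *csn-7* (NCU08342), a COP9 signalosome gene, was called in each of these fits, with 55.5, 36.9 and 42.1 CPM in HSAF-30 and 5.50, 16.7 and 10.2 CPM in HSAF-5 (log2 fold change 2.03 ± 0.37). The proteasome gene *rpn-7* was at 1.30 ± 0.30 and was not called without D, E, F or G (adjusted p in edgeR between 0.0139 and 0.0187).

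Of 15 tested genes of the vacuolar ATPase and protease, 1 was higher and 1 lower, beside 9.02% and 7.81% of all tested genes. The list median was 0.06. The lower gene was *vma-13* (−1.35), which was not called without D or F. The higher one, the vacuolar protease gene *pep4* (NCU02273), had 8844, 3063 and 5501 CPM in HSAF-30 and 1756, 1552 and 2250 CPM in HSAF-5. The log2 fold change of *pep4* was 1.65 ± 0.40. It was not called without D, E, F or G (adjusted p in edgeR between 0.0118 and 0.0345). Another 3 genes, of autophagy, that the study named were also examined. NCU04662 (*atg5* in the study) was higher at 1.99 ± 0.48, on levels of at most 9.57 CPM, and was lost without D, E or G (adjusted p between 0.0183 and 0.0223). NCU10049 (*atg12*, 1.93 ± 0.58, adjusted p 0.0202) and NCU01955 (*atg3*, 0.81 ± 0.29, adjusted p 0.0461) were not called.

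Peroxisome genes had a median of 0.59 over 24 tested, of which 2 were higher, a share near the 9.02% of all tested genes. *pex5*, the gene of the import receptor, had 277.4, 303.8 and 189.6 CPM in HSAF-30 and 61.4, 63.3 and 44.4 CPM in HSAF-5, a log2 fold change of 2.19 ± 0.30. Without H, 2 peroxisome genes were lower. Of 14 heat shock and folding genes, *hsp90a* (2.10 ± 0.37) was the one called. The alternative respiration list had 2 higher genes of 8. *aod-2* (2.48 ± 0.46), an alternative oxidase gene, stayed called in every fit that left out a library. *nde-2* (1.39 ± 0.32), an NADH dehydrogenase gene, was not called without D, E or H (adjusted p in edgeR between 0.0108 and 0.0178).

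Over all tested genes, 4053 of 7582 had a negative change and 7.81% were called lower. Of 14 oxidative stress genes, 13 had a negative change, and 3 were called lower. The thioredoxin gene *trx* (−1.72 ± 0.31) stayed called, *sod-1* (−1.56 ± 0.40) lost its call without A, B, C, D, E, F, G, I or K (adjusted p in edgeR between 0.0106 and 0.0363), and *gst-2* (−1.39 ± 0.33) without D, E, F or G (0.0109 to 0.0244). The list had 1 lower gene without D, F or G and 5 without H. None of 41 genes of the respiratory complexes was called by edgeR, with a median of −0.50 (−0.30 without I, −0.76 without G), 34 negative changes and 13 at an unadjusted p under 0.05. DESeq2 called 1 of these lower and limma none, and edgeR called 2 lower without E. None of 9 cytosolic ribosomal protein genes was called by edgeR, DESeq2 or limma, with 3 at an unadjusted p under 0.05 and a median of −0.58 (−0.33 without I). All 9 had negative changes with TMM, and 8 with library size alone. The histone list had 2 lower genes of 9, *hH4-2* (−1.89 ± 0.41) and *hH3* (−1.40 ± 0.33), and a median of −0.94 (−0.58 without I). No histone gene was called without F (adjusted p 0.0165 and 0.0293) or without G (0.0115 and 0.0180).

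Among 27 tested chromatin genes, mostly of histone methylation and deacetylation, 2 were higher and 3 lower (*set-6*, *dim-5* and *npd-2*). Over all tested genes these shares were 9.02% and 7.81%. The lower genes numbered 0 without E, F or G and 1 without B or D. *set-2* (NCU00269), the gene of a histone H3 lysine methyltransferase, had 49.2, 35.2 and 55.5 CPM in HSAF-30 and 4.23, 7.13 and 4.63 CPM in HSAF-5, a log2 fold change of 3.11 ± 0.42. The sirtuin gene *nst-7* was at 3.16 ± 0.45. Both were called whichever library was left out. *set-6* (−2.19 ± 0.52) was lost without B, E, F, G or H (adjusted p in edgeR between 0.0124 and 0.0242), and *dim-5* (−1.84 ± 0.49) when any library but H was left out (0.0101 to 0.0414).

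Several genes known to be induced by light in *N. crassa* were lower in HSAF-30 than in HSAF-5. The photoreceptor gene *vvd* (NCU03967) had 8.92, 27.3 and 4.79 CPM in HSAF-30 and 73.7, 109.1 and 61.7 CPM in HSAF-5, a log2 fold change of −2.47 ± 0.55. The cryptochrome gene *cry* (NCU00582) had 14.98, 41.0 and 16.3 CPM in HSAF-30 and 150.7, 173.0 and 90.5 CPM in HSAF-5 (−2.48 ± 0.41). In both genes the HSAF-5 libraries were above those of every other time, and HSAF-0 lay between 15.8 and 24.8 CPM for *vvd* and between 35.2 and 50.8 CPM for *cry*. The photolyase gene *phr*, named above, had 2.52, 13.1 and 9.57 CPM in HSAF-30 and 66.5, 49.6 and 48.8 CPM in HSAF-5, with 6.40 to 8.77 CPM in HSAF-0. *al-1*, the phytoene desaturase gene of carotenoid synthesis, had 10.8, 22.4 and 6.70 CPM in HSAF-30 and 77.9, 69.4 and 48.4 CPM in HSAF-5 (−2.21 ± 0.43). *cao-2*, a carotenoid oxygenase gene, was at −1.78 ± 0.35. The call of *vvd* was lost without E, G or I, at adjusted p in edgeR of 0.0157, 0.0201 and 0.0125, and that of *al-1* without G, at 0.0101. These 5 genes were put together after their values had been seen.

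Not all genes of light and color went this way. Over all tested genes, 9.02% were higher and 7.81% lower. Of the 6 carotenoid genes, 2 were lower and *al-3*, the geranylgeranyl pyrophosphate synthase gene, was higher, with 193.6, 78.8 and 116.8 CPM in HSAF-30 and 18.2, 20.8 and 20.8 CPM in HSAF-5 (log2 fold change 2.70 ± 0.40). The carotenoid list had 1 lower gene without G and 3 without H. Of 18 tested clock and photoreceptor genes, 3 were higher and 2 were lower, 1 was higher without D, E or F, and the clock gene *frq* (−0.65) and the light receptor genes *wc-1* (−0.01) and *wc-2* (0.19) were not called. The opsin gene *nop-1* was higher (1.93 ± 0.48), though not without D, F or I (adjusted p in edgeR between 0.0206 and 0.0328), and its HSAF-60 libraries stood at 98.7 to 188.2 CPM, against 9.26 to 24.9 CPM in HSAF-30. The spore and sexual markers gave 3 calls together, 2 higher (*acon-3* and *al-3*) and 1 lower (*al-1*), of 15 tested.

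A pair of lipid genes had large decreases, while the list of lipid genes moved in both directions. Of 8 tested genes of sterols, inositol and lipids, 1 was called lower (*inl*) and 0 higher. The list median was −0.14 (0.12 without I), with 4 positive and 4 negative changes. NCU08280 was not in that list. NCU08280, described as a squalene epoxidase, an enzyme of sterol synthesis, had 3.70, 3.11 and 10.5 CPM in HSAF-30 and 93.1, 46.1 and 53.8 CPM in HSAF-5. Its log2 fold change was −3.75 ± 0.46 (adjusted p in edgeR 3.89e-05). The inositol-1-phosphate synthase gene *inl* (NCU06666) had 13.97, 10.97 and 6.70 CPM in HSAF-30 and 111.8, 24.1 and 131.9 CPM in HSAF-5, a log2 fold change of −3.01 ± 0.60. Library E stood apart from D and F in this gene, and the HSAF-0 libraries were higher than all of these, at 242.9 to 353.7 CPM. Of 51 tested transcription factor genes, 2 were higher and 3 were lower, shares below the 9.02% and 7.81% of all tested genes. *sre*, the siderophore regulator gene, was higher (1.57 ± 0.34) and was not called without D, F or G (adjusted p between 0.0112 and 0.0152). *ada-1* was lower (−2.02 ± 0.51) and was not called without A, B, C, D, E, G or I (adjusted p between 0.0109 and 0.0413). The lower transcription factor genes numbered 7 without H, 1 without D, E, F or I, and 0 without B or G. The higher ones numbered 4 without I, 1 without A, C, G or K, and 0 without D or F.

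The largest changes were mostly of genes without a symbol. By the rule for named genes, 12 increases and 12 decreases were taken among genes called with and without library I. The increases included *hgt-1*, *parp* and *gdh-1*, and those without a symbol ran between NCU03649 (7.24 ± 0.75) and NCU03776 (5.18 ± 0.78). NCU02700 had 1932, 562.6 and 1264 CPM in HSAF-30 and 14.8, 38.4 and 32.6 CPM in HSAF-5, and a log2 fold change of 5.44 ± 0.61. NCU00855 had 665.7, 178.4 and 484.5 CPM in HSAF-30 and 7.62, 8.77 and 15.2 CPM in HSAF-5 (5.36 ± 0.68). Both were still at high levels at 60 min, with 450.7 to 2067 CPM for NCU02700 and 467.6 to 3366 CPM for NCU00855.

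NCU06884 was on a different course, with 221.2, 161.2 and 492.1 CPM in HSAF-30, 3.81, 8.77 and 4.05 CPM in HSAF-5, and 9.09 to 27.4 CPM in HSAF-60. The largest decrease under that rule was that of NCU08155, with 3.54, 6.55 and 3.83 CPM in HSAF-30 and 86.4, 156.8 and 102.4 CPM in HSAF-5 (log2 fold change −4.57 ± 0.44). NCU02526 followed, with 5.55, 15.7 and 6.70 CPM in HSAF-30 and 201.9, 266.5 and 145.2 CPM in HSAF-5 (−4.39 ± 0.46). Its HSAF-60 libraries lay between 150.8 and 246.1 CPM, near those of HSAF-5. Genes with a symbol among the decreases were *ecd-2* (−3.999 ± 0.50) and *bdp-1* (−3.92 ± 0.45). Of these 24 genes, NCU05126 (−3.81 ± 0.73) was the one that lost its call in a fit without 1 library, namely G (adjusted p in edgeR 0.0109).

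Called genes stood side by side in the annotation in places. There were 10 runs of 3 or 4 neighbouring genes called higher, and 7 runs of 3 called lower. The longest were the 4 genes NCU04544 to NCU04541, with log2 fold changes between 2.03 and 3.85, and the 4 genes NCU09568 to NCU09565, with 1.79 to 3.70. Others held NCU06884 and *mlh-1* with 2 neighbours each. Neighbours are not independent where transcripts overlap, since the strand setting of the counting is not given. The median length of the gene in the annotation was 2790 bp for higher genes, 2105 bp for lower genes and 2377 bp for all tested genes.

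A comparison that shares no library with this one, HSAF-60 against HSAF-0, shows where the same genes stood later. Both were taken from 1 fit of the 12 libraries, with shared filter, scaling and estimates of spread, so they are not independent. HSAF-60 against HSAF-0 called 711 genes higher and 268 lower, or 9.38% and 3.53% of the 7582 tested. Of the 684 genes higher in HSAF-30 than in HSAF-5, 213 were also higher in HSAF-60 than in HSAF-0, which is 31.1% of the first list and 30.0% of the second. Another 6 were lower. Of the 592 lower genes, 74 were lower again, or 12.5% of the first and 27.6% of the second list, and 21 were higher. The median log2 fold change of HSAF-60 over HSAF-0 was 0.86 for the higher genes, −0.47 for the lower genes and 0.002 for all tested genes. Without library I the shared numbers were 190 higher genes, or 28.4% of 669 and 23.7% of 802, and 82 lower ones, or 19.9% of 412 and 20.3% of 403. The calls of HSAF-60 against HSAF-0 thus moved to 802 and 403, though library I is in neither of these groups.

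The genes described above fell on both sides. Higher in HSAF-60 than in HSAF-0 were *gdh-1* (log2 fold change 3.78), *parp* (3.26), *chs-3* (3.04) and NCU00855 (10.50). *inl* was lower there, at −3.60, as was NCU08280, at −1.57. Not called in that comparison were *hgt-1* (2.32, adjusted p in edgeR 0.0254), *gla-1* (1.13, 0.0238), *fba* (−1.75, 0.0194), *rad16* (1.16, 0.0617), *nca-2* (0.60, 0.193), *mak-1* (−0.33, 0.456) and *set-2* (−1.28, 0.0471). Whether the 2 comparisons differ in these genes was not tested.

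**Figure D5:**
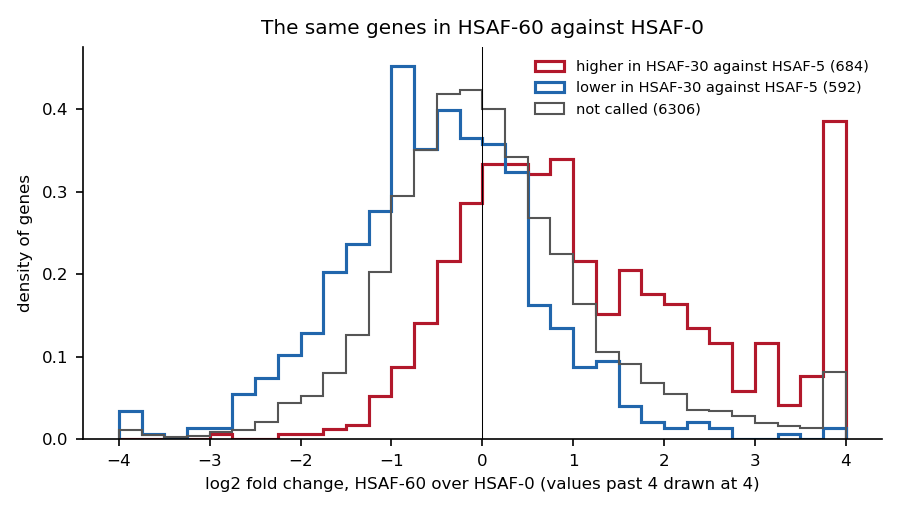
The x axis is the log2 fold change of HSAF-60 over HSAF-0 and the y axis the density of genes, drawn for the 684 genes higher in HSAF-30 than in HSAF-5, the 592 lower genes and the other tested genes. The medians were 0.86 for the higher, −0.47 for the lower and 0.002 for all tested genes.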

How the data were processed

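Groups came from the sample labels, and the replicates are libraries lettered A to L (A to C HSAF-0, D to F HSAF-5, G to I HSAF-30, J to L HSAF-60). The authors trimmed the reads with Trimmomatic and deposited raw counts and FPKM per gene. The sources used here give no aligner, counting program or genome build. The labels and the paper's methods differ on culture age and temperature, and 2 sequencers are named without assignment to libraries. The paper calls the 3 libraries per time biological replicates, while the labels name no separate cultures, so p-values measure the spread between these samples.

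Counts of NCU genes were fitted with edgeR 4.0.16 in R 4.3.3 (TMM, filterByExpr with a minimum count of 10, quasi-likelihood, 1 term per time point, 12 libraries). Standard errors came from the fold change and the F statistic. Adjusted p are Benjamini-Hochberg over all tested genes. DESeq2 1.42.0 and limma 3.58.1 (log2(FPKM + 1)) were alternatives, and pandas 2.3.3, scipy 1.17.1 and matplotlib 3.10.9 served for tables, intervals and figures. Total counts per library were 11517462 to 15698448. Replicates were checked for duplicate counts, and each pair differed beyond counting noise. Intervals from counts cover counting error only. The test was tested on simulated data.

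Genes were named by a rule: the 12 largest changes each way among genes called with and without library I (average log2 CPM 4 or more, no overlap), up to 4 called genes per list (average 3 or more), and genes named in the paper. Further genes, among them members of the DNA repair, sugar, glycolysis, clock, marker and actin lists, were named after their values were seen. The comparison, the 41 lists and the tests were chosen with earlier results of these data known, and some lists were corrected after values were seen. Symbols and neighbours came from RefSeq (NC12), where all 9729 identifiers were found and 1118 entries have a symbol of their own. The authors' tables of fold changes were not used. Results of some genes are not reported here.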

Additional observations from a re-analysis of the deposited data

Results flagged for a closer look

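The features named newGene were outside the comparison of NCU genes. In a fit of all deposited features but newGene_189 and newGene_190, 727 of them were tested and 51 were called between HSAF-30 and HSAF-5, 23 higher and 28 lower. This is 7.02%, against 16.4% of the NCU genes in the same fit. Their definition is not given in the sources used here, so they cannot be named as genes, and the choice of this fit was made after seeing the data.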

How the results depend on the processing

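Against 1276 calls, DESeq2, its size factors in edgeR, library size alone, the fit with no filter, upper quartile factors and leaving out A, B, C, E, H, I, J, K or L each gave a total within 1.5 times. With upper quartile factors the calls were 670 higher and 698 lower. Only the 2 groups compared gave 725 calls, 241 of them lower. Limma on log2(FPKM + 1) gave 75, 70 higher and 5 lower, and the cause was not tested. At 0.05 with no limit on the fold, there were 2301, 1184 higher and 1117 lower. Leaving out 1 library gave 706 to 1707 calls, 378 to 795 higher and 290 to 912 lower, and 544 genes were called in every fit that left out 1 of D to I, an alternative chosen after seeing the data. HSAF-60 against HSAF-0 gave 979 calls, 508 to 1287 when 1 library was left out, 385 with limma and 1507 with the 2 groups alone. Of the 127 named genes that were called, 109 lost their call with limma, which was not fitted to another 4. The call was lost for 36 with the 2 groups alone and 12 with library size alone. *nca-1* (0.07) reversed to −0.23 without H and −0.07 without E and reached 0.38 without F, and *uvs-6* (0.60) to −0.02 without G and 0.95 without I. None of these was called. No paired analysis was possible because letters A to L, given 1 to a library, give no replicate number that times share. Depth limits library I most, with 790513 counts on NCU genes, where a change of a weakly expressed gene may have been missed.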
